A study of Homo sapiens with 5 samples.

Results

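p53 is a transcription factor that is stabilized after DNA damage and other stress and binds DNA as a tetramer at a pair of half-sites. Its target genes stop the cell cycle, repair DNA, adjust metabolism, trigger cell death or, through MDM2, bring p53 itself down again. Chromatin at many of these genes is known to be open before p53 is induced, and p63, a relative of p53 that is active in basal mammary epithelium, binds the same DNA element. The genes described here are 33 known p53 targets, chosen by name among 19663 protein-coding genes, and their regulatory regions were read in MCF10A, a line of human mammary epithelial cells that is immortal but does not form tumours. In ATAC-seq the transposase Tn5 cuts open chromatin and tags it with adapters, so reads gather at accessible promoters and enhancers.

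The deposited list holds 181723 hotspots, which are regions of local read enrichment called on the merged reads of 5 MCF10A libraries. All 5 were labelled as a baseline condition, and the cells grew in medium with horse serum, EGF, hydrocortisone, cholera toxin and insulin. No second condition and no cells with induced p53 were analysed here, so the list shows where chromatin was open and not what p53 did. The libraries were pooled before the calls, so no value has a replicate error, the depth is unknown, and no test between groups was possible. Each hotspot has a score from the calling program, which ranks hotspots and has no stated unit. A hotspot was counted at the promoter of a gene if it reached within 1000 bp of any of its transcription start sites (TSSs), and an assigned hotspot has that gene's TSS as the nearest within 100 kb. By these rules 258 hotspots belonged to the 33 genes, of which 45 were promoter hotspots and 213 lay elsewhere. As a check of the label, 13 of 15 mammary epithelial marker genes (86.7%) had a promoter hotspot, where 74.9% of all protein-coding genes had one. Of 9 markers of blood, liver, neurons and endothelium, 2 had one (22.2%). The epithelial share is near that of all genes, so mainly the low share of the other markers bears on the label. The epithelial genes without a promoter hotspot were KRT14 and TP63, of which TP63 had 17 assigned hotspots.

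The DNA elements that carry the comparison with p53 are shown first. A p53 site was defined as adjacent half-sites of 10 bases, each with purines, a core of C, A or T, A or T and G, and then pyrimidines. Both C and both G had to match, and at most 2 other bases of the 20 could differ. The sites are printed on the plus strand of hg38, with the core of each half-site in capitals. These are the sites that lay inside hotspots of the genes, where a sequence can be given.
CDKN1A, chr6:36667258-36667277: agaCAAGcccgggCAAGgcc
CDKN1A, chr6:36676449-36676468: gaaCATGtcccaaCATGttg
MDM2, chr12:68808923-68808942: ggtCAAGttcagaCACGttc
FAS, chr10:88991309-88991328: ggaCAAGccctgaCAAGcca
PMAIP1, chr18:59899549-59899568: gggCTTGtttaccCAAGtct
BTG2, chr1:203303642-203303661: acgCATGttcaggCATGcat
DDB2, chr11:47214969-47214988: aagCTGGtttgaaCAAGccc
AEN, chr15:88621306-88621325: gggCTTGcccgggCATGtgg
SPATA18, chr4:52051957-52051976: ggaCATGtgtgtaCATGccc
CCNG1, chr5:163437926-163437945: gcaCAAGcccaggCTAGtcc
FBXW7, chr4:152352620-152352639: ggaCATGctcaggCACGtca
Sites with 0 mismatches but a gap lay in the promoter hotspots of DDB2 (1 base, score 34.4) and TIGAR (2 bases, score 40.6). Gapped sites outside hotspots were not listed. Both sites with no mismatch and no gap among those nearest to the genes lay outside hotspots, and they are shown for contrast.
ZMAT3, chr3:179070188-179070207: aggCATGtctggaCTTGttt
PLK2, chr5:58462274-58462293: gggCAAGtccaggCATGttt

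Every one of the 33 genes had a promoter hotspot, where 74.9% of all protein-coding genes had one. The Wilson 95% interval of this share ran from 89.6% to 100%, and it covers counting error only. In all 33 a hotspot covered the TSS of the canonical transcript itself, against 60.9% of all genes. The genes lie on 15 chromosomes. Of the 33 promoters, 32 had a ratio of observed to expected CpG above 0.6, within 500 bp of the canonical TSS. The exception was TP53I3, a quinone oxidoreductase gene, at 0.49. Among all genes 66.7% had such a ratio, and among genes with a promoter hotspot 79.9% did. Since all 33 genes had a promoter hotspot, they cannot show whether hotspots go with CpG content. The part of CpG content in the count was not tested.

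The highest promoter score of the 33 genes had a median of 30.3, against 20.7 over all genes with a promoter hotspot. Of the 33 genes, 26 were above the all-gene median and 16 above the all-gene percentile 75 of 30.8. None was below the all-gene percentile 25 of 11.0. The highest was RRM2B, a subunit of the p53-inducible ribonucleotide reductase, at 56.0, which is percentile 99.2 of all genes with a promoter hotspot. It was followed by PLK2, a kinase of the cell cycle and of stress signalling, at 46.2. SESN1, a sestrin that restrains mTORC1, had 44.7, CCNG1, which encodes cyclin G1, 43.2 and GADD45A, a growth arrest gene, 42.1. The lowest was TRIAP1, which encodes a small inhibitor of apoptosis, at 13.3. FAS, the receptor of the extrinsic death pathway, had 14.6, PHLDA3, which restrains AKT, 15.9, CYFIP2 19.0 and SPATA18, a gene of mitochondrial quality control, 19.1.

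**Figure D1:**
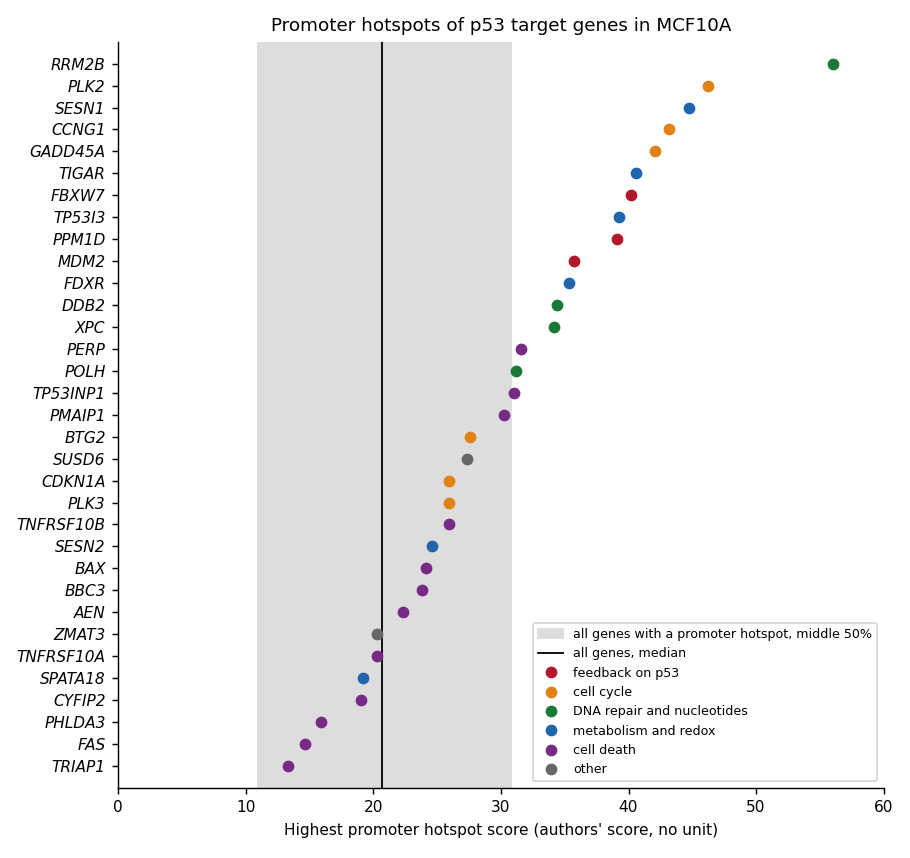
The highest promoter hotspot score (horizontal axis, authors' score without unit) of each of the 33 p53 target genes (1 point per gene, coloured by role) is set against all genes with a promoter hotspot, whose median of 20.7 is the line and whose middle 50% is the grey band. The points run from 13.3 for TRIAP1 to 56.0 for RRM2B, and the cell death genes fill most of the lower end.

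By role, the 3 genes that feed back on p53 had scores of 35.7 to 40.2 with a median of 39.1. FBXW7, a ubiquitin ligase subunit, stood at 40.2, PPM1D, a phosphatase of the damage response, at 39.1, and MDM2, the ubiquitin ligase of p53, at 35.7. The 6 genes of metabolism and redox balance had a median of 37.3, with TIGAR, which lowers glycolytic flux, at 40.6, TP53I3 at 39.3 and FDXR, ferredoxin reductase, at 35.3. SESN2, another sestrin, was at 24.6. The group thus spans most of the range of the 33 genes.

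The 6 cell cycle genes had a median of 34.8. CDKN1A, which encodes the inhibitor p21, had 25.9, close to PLK3, a stress-response kinase, at 25.9 and BTG2, an antiproliferative gene, at 27.6. The 4 genes of repair and nucleotide supply ranged from 31.2 to 56.0. DDB2 and XPC, which both recognize damage in nucleotide excision repair, had 34.4 and 34.2, and POLH, a translesion polymerase, 31.2. All 4 were above the all-gene percentile 75.

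The 12 cell death genes had a median of 23.1 and reached 31.6. Of the BH3-only genes, PMAIP1, which encodes NOXA, had 30.3 and BBC3, which encodes PUMA, 23.8. BAX, an effector of mitochondrial permeabilization, had 24.1. These mitochondrial genes all lay above the all-gene median. Of the TRAIL receptor genes, TNFRSF10B had 25.9 and TNFRSF10A 20.3. PERP, a desmosome-associated gene of epithelia, had 31.6, TP53INP1, an autophagy and death gene, 31.0 and AEN, an apoptosis-enhancing nuclease, 22.4. ZMAT3, an RNA-binding protein gene, at 20.3 and SUSD6 at 27.3 were in no role group. With 1 pooled list, no difference between these roles was tested.

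Promoter hotspots of the genes were also wide, with a median of 1280 bp for the highest-scoring one against 918 bp over all genes. The widest were those of CDKN1A at 2821 bp, BTG2 at 2450 bp and GADD45A at 2154 bp. At CDKN1A this hotspot ran over the first exon into intron 1, and 3 further promoter hotspots with scores of 5.87 to 10.5 lay upstream of it. Score and width of the promoter hotspot went together across all genes (Spearman's rho 0.70) and across the 33 genes (rho 0.42), given as a description since both come from the same reads.

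In 6 genes the promoter hotspot with the highest score also lay at the TSS of a gene on the opposite strand. The pairs were FAS with ACTA2, SESN1 with CEP57L1, TP53INP1 with NDUFAF6, XPC with LSM3, TRIAP1 with GATC and POLH with XPO5. Over all genes 22.1% shared their hotspot with another gene. For TRIAP1 and POLH the neighbour's TSS was the nearer, so these hotspots were assigned to GATC and XPO5. Openness at these 6 promoters cannot be told apart from openness of the neighbour.

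Assigned hotspots ranged from 0 to 22 per gene. The 33 genes had a median of 6, against 5 over all genes, and 256 in all. Of the 33 genes, 17 were above the all-gene median, 5 at it and 11 below it, where 44.1% of all genes were above it. PMAIP1 had the most at 22, followed by PERP with 17, GADD45A and CYFIP2 with 16 each, and BTG2 and FBXW7 with 15 each. At the other end TRIAP1 had 0 and FDXR 1, and BAX, XPC, POLH, PLK3 and TP53I3 had 2 each. TNFRSF10B and CCNG1 had 13 each, CDKN1A, BBC3 and ZMAT3 12 each and SESN1 10, and the rest had 3 to 8.

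**Figure D2:**
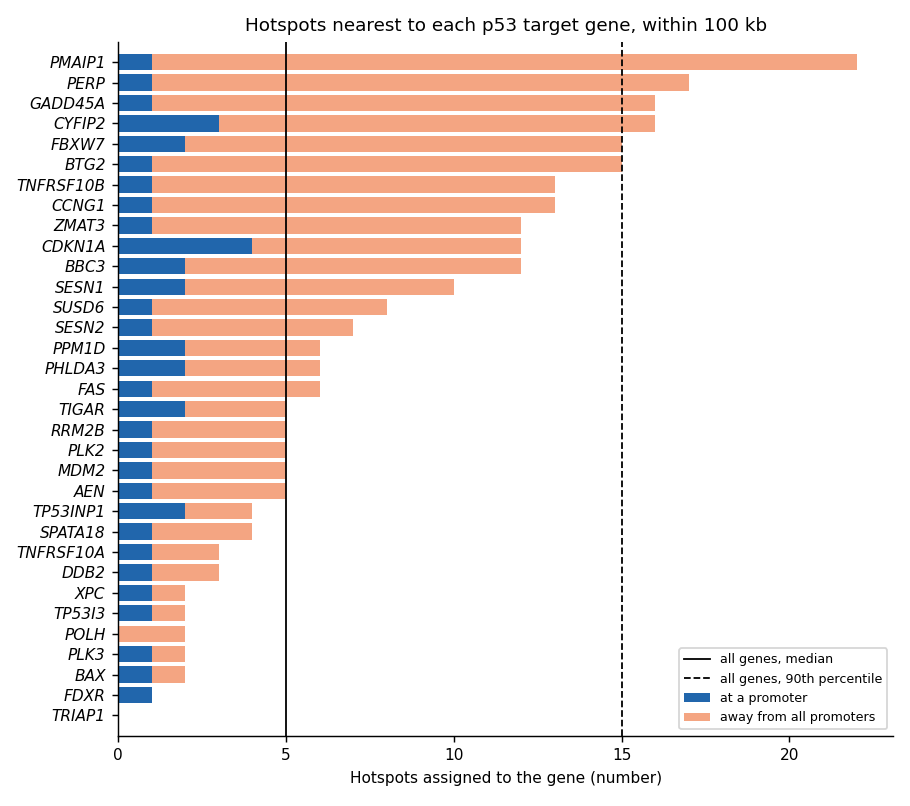
The number of hotspots assigned to each of the 33 p53 target genes (horizontal axis, bars split into hotspots at a promoter and hotspots away from all promoters), with the all-gene median of 5 as a line and the all-gene 90th percentile of 15 as a dashed line. PMAIP1 leads with 22, and TRIAP1 has 0.

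Hotspots of the 22 at PMAIP1 were mostly faint, since apart from its promoter at 30.3 the highest score was 10.1. Those at PERP included a hotspot of score 36.1 at 72.3 kb downstream of its TSS, above the 31.6 of its own promoter. The 16 at CYFIP2 lay in a region with 136 hotspots per Mb, over 2.5 Mb on either side, where the median of the 33 genes was 79.6 per Mb. Chromosome 5 beyond 120 Mb had 128 hotspots per Mb in all, against 58.8 over the genome. BBC3 and BAX, on chromosome 19 with 108.5 per Mb, had 145 and 131 per Mb around them, although BAX had only 2 assigned hotspots. The part of local density in these counts was not tested.

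Away from promoters, 10 of the 213 hotspots had a score above 20. The strongest lay in intron 1 of SESN1, 48.1 kb into the gene, with a score of 101, and a narrow neighbour 47.0 kb in had 38.7. Positions are those of hotspot midpoints from the canonical TSS. The score of 101 was above the 44.7 of the SESN1 promoter, and it stood at percentile 99.9 of all hotspots. ZMAT3 had a hotspot of score 28.9 in intron 2, 34.3 kb into the gene, above the 20.3 at its promoter. PHLDA3 had one of 28.3 at 7.41 kb beyond its TSS, against 15.9 at the promoter, and the BBC3 gene held one of 27.3 in intron 2 that was 3764 bp wide. At PLK2 a hotspot of only 142 bp, 75.7 kb downstream, had 28.9.

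At CDKN1A the strongest region upstream lay at −11.5 kb from the canonical TSS, with a score of 21.7. A further one of 20.0 lay in intron 1 at 3.95 kb. In the surrounding sequence of the upstream hotspot, the whole p53 site is in capitals, as in the sequences that follow it for MDM2, PMAIP1 and CCNG1, whose sites lie in promoter hotspots.
CDKN1A, chr6:36667218-36667317: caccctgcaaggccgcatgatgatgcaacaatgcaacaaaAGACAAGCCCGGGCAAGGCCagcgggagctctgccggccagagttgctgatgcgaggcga
MDM2, chr12:68808883-68808982: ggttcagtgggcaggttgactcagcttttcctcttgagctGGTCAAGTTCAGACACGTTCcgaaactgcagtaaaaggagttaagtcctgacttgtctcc
PMAIP1, chr18:59899509-59899608: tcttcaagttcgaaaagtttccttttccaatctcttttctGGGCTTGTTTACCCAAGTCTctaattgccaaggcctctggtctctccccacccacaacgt
CCNG1, chr5:163437886-163437985: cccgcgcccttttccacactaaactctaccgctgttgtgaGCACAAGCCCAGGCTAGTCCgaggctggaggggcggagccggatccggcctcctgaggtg

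A p53 site lay in a promoter or assigned hotspot of 13 of the 33 genes (39.4%, Wilson 95% interval 24.7% to 56.3%, counting error only), where 5.19% of all genes had one. The count depended on the definition of a site. It was 5 with at most 1 mismatch, where 1.19% of all genes had one. With at most 1 mismatch and a gap of 0 to 13 bases between the half-sites it was 8, against 5.19% of all genes. With at most 3 mismatches it was 18, against 17.5% of all genes. The genes are known p53 targets, some of them known through these very sites, so the count is a description and no independent evidence. The 13 genes included CDKN1A, GADD45A, BTG2 and CCNG1 of the cell cycle group, and MDM2 and FBXW7 of the feedback group. The others were FAS, TNFRSF10B, PMAIP1 and AEN of the cell death group, RRM2B and DDB2 of repair and nucleotides, and SPATA18. In 11 of the 13 genes a site lay in a promoter hotspot. Of the 45 promoter hotspots 11 held a site (24.4%), against 145 of 19599 promoter hotspots of all genes (0.740%). Per length this was 214 sites per Mb against 9.65. Away from promoters 4 of 213 hotspots held one (1.88%), against 0.817% over all genes.

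CDKN1A had a site in each of 2 hotspots, at −2.26 kb from the canonical TSS (score 10.5) and at −11.4 kb (score 21.7). MDM2 had its site in intron 1, 0.756 kb into the gene, within the promoter hotspot of score 35.7. GADD45A had its site in intron 3 at 1.58 kb, in the promoter hotspot of 42.1, which is wide enough to reach it. CCNG1, FAS and SPATA18 had theirs in intron 1, at 0.341, 0.521 and 0.663 kb. In DDB2 and AEN the site lay at the TSS, at 5 bp and −24 bp. The DDB2 site, which has 1 mismatch, overlapped one with 0 mismatches and a gap of 1 base, at 15 bp in the same hotspot. PMAIP1 had its site at −0.437 kb, within the promoter hotspot.

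TNFRSF10B had a site at 0.399 kb in its promoter hotspot and another 12.5 kb into intron 1, in a faint hotspot of score 5.24. RRM2B had its site in intron 1 at 2.11 kb, not in the promoter hotspot of 56.0 but in a separate one of 9.75. The BTG2 site, at −1.87 kb, lay in a hotspot of 4.98, below the median of 5.81 over all hotspots, and not in the BTG2 promoter hotspot of 27.6. The FBXW7 site lay 183 kb from the canonical TSS, at an inner promoter whose hotspot had a score of 25.9. The faint and the strong hotspots of the 13 genes therefore both held sites.

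**Figure D3:**
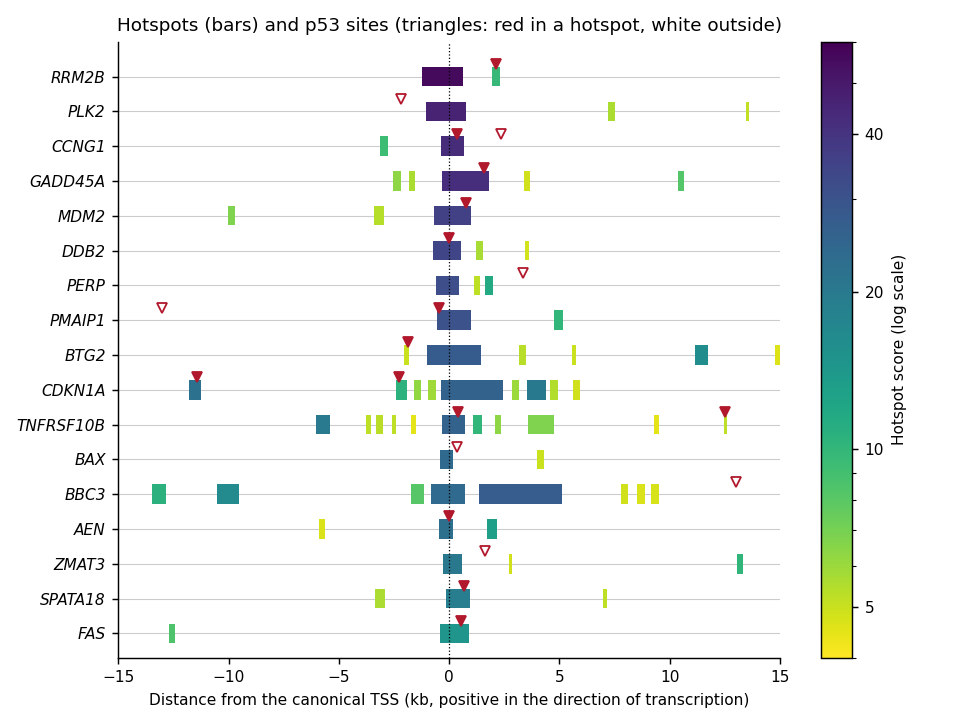
Hotspots (bars, coloured by score on a log scale) and p53 sites (triangles, red inside a hotspot and white outside) within 15 kb of the canonical TSS of the p53 target genes that have a site there, with distance in kb on the horizontal axis. Most red triangles lie at the bar over the TSS, and those of ZMAT3 and PLK2 are white.

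Seen from the sites, 31 p53 sites had one of the 33 genes as the nearest within 100 kb, and 14 of them lay in a hotspot (45.2%), against 7.82% of such sites of all genes. The share changed with distance. Within 1 kb of a TSS 9 of 10 sites lay in a hotspot, against 24.4% over all genes and 29.7% over genes with a promoter hotspot. A hotspot already covered the canonical TSS in all 33 genes, against 60.9% of all genes. The highest-scoring promoter hotspots were also wider, with medians of 1280 bp against 918 bp. The part of this promoter coverage in the share within 1 kb was not tested. From 1 to 10 kb 4 of 8 sites lay in a hotspot against 8.22%, and from 10 to 100 kb 1 of 13 against 6.77%. At least 1 site within 10 kb was found in 16 of the 33 genes, where 17.5% of all genes had one, and 13 of their 18 sites within 10 kb lay in a hotspot, against 10.4%. These counts are small and have no replicate error.

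**Figure D4:**
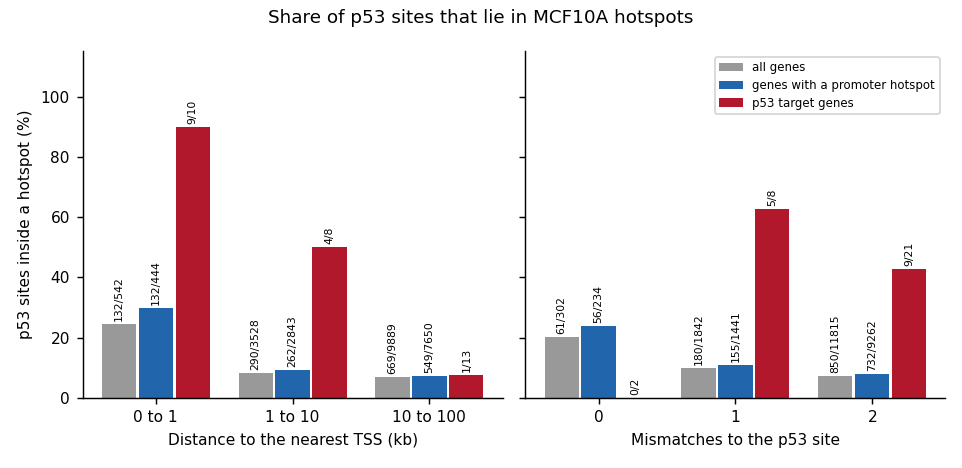
The share of p53 sites inside a hotspot (vertical axis, percent) by distance to the nearest TSS and by mismatches to the site, for all genes, genes with a promoter hotspot and the p53 target genes, with the counts above the bars. The p53 target genes have 9 of 10 within 1 kb and 1 of 13 beyond 10 kb, and 0 of their 2 sites with no mismatch and no gap.

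Some sites near the genes lay outside hotspots. The ZMAT3 site with no mismatch, in intron 1 at 1.61 kb, was 1014 bp from the nearest hotspot, and that of PLK2, at −2.20 kb, was 1133 bp from the promoter hotspot of 46.2. Over all genes 61 of 302 sites with no mismatch (20.2%) lay in a hotspot. PERP had a site with 1 mismatch in intron 1 at 3.34 kb, 1336 bp from a hotspot. In BAX a site in intron 1 lay 168 bp beyond the edge of a hotspot. The surroundings of the ZMAT3 and PLK2 sites outside hotspots were as follows, with the p53 site in capitals.
ZMAT3, chr3:179070148-179070247: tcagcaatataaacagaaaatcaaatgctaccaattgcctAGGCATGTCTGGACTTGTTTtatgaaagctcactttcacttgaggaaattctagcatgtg
PLK2, chr5:58462234-58462333: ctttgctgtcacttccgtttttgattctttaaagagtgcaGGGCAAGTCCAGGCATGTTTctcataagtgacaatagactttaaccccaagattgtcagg

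AEN is the only gene of the 27 with an entry among RefSeq promoters (GRCh38.p14, 300 bases each) whose promoter held a p53 site, where 0.216% of 15307 promoters did. The 120 bases that end just before its TSS show that site in capitals, close to CCAAT and GGGCGG elements.
AEN, chr15:88621220-88621339, plus strand: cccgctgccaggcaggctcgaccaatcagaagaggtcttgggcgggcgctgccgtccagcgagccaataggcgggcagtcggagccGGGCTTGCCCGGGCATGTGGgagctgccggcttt

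In those 27 promoters GGGCGG, the box of SP and KLF factors, was found in 24 (88.9%), against 59.2% of the 15307, on either strand. CCAAT, the NF-Y box, was in 11 (40.7% against 36.6%). TGANTCA, the AP-1 element, was in those of PERP, FAS and BBC3 (11.1% against 5.75%). CCGGAAG, an ETS element, was in those of AEN and FDXR (7.41% against 14.4%), the NRF1 motif in 3 (11.1% against 8.59%) and the CTCF motif in 0 (0.529%). GGGCGG contains a CpG, and the counts were not adjusted for CpG content. No entry was used for TNFRSF10A, TNFRSF10B, GADD45A, TP53INP1, RRM2B or PHLDA3. The comparison depended on the region used. In 33 promoter hotspots of the genes the NRF1 motif was in 9.09%, against 13.8% of 13198 promoter hotspots of all genes. CCAAT was in 69.7% against 53.3%, and GGGCGG in all 33 against 80.0%. TGANTCA was in 21.2% against 14.7%, CCGGAAG in 21.2% against 26.9% and the CTCF motif in 0 against 1.58%. Hotspots differ in width, and these shares were not adjusted for it.

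In hotspots away from promoters TGANTCA was found in 50 of the 213 (23.5%), against 17.0% of 113304 such hotspots of all genes, whose median widths were 290 and 284 bp. GADD45A had the most, with 7, and PERP and FBXW7 had 6 each. A match is a description of the sequence and not a bound site.

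Among 28 regulators of p53, 26 had a promoter hotspot (92.9%, against 74.9% of all genes), with a median score of 29.2. A p53 site in a hotspot was found in 1 of them, TP73 (3.57%, against 5.19% of all genes). No promoter hotspot was found at TP63 or at CDKN2A, which encodes p16 and the MDM2 inhibitor p14ARF. CDKN2A lay in a stretch of 485 kb without any hotspot. Copy number was not examined, so missing DNA and a lack of open chromatin cannot be told apart there. A further 22 p53 targets outside the 33 all had a promoter hotspot, against 74.9% of all genes. Their median score of 18.4 was below the 30.3 of the 33 genes and the 20.7 of all genes with a promoter hotspot. Those with a p53 site in a hotspot included GDF15, DRAM1, THBS1, GLS2, ACER2, EDA2R and FUCA1. TP53AIP1, TNFRSF10C and PADI4 had the lowest scores of that list, at 5.22, 5.24 and 5.09. No difference between the lists was tested.

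For each limit of the rules the nearest hotspots on either side are given, and the hotspots close to a limit were not counted. The hotspots that held the BTG2 and RRM2B sites lay outside the promoter window, with midpoints at −1.93 and 2.13 kb from the canonical TSS. The count of genes with a site in a promoter hotspot was not repeated with the window of 2000 bp. The promoter hotspot farthest from a TSS that still counted was one of PHLDA3 at 936 bp (score 4.50), and the nearest assigned hotspot beyond the limit was one of TNFRSF10B at 1067 bp (score 10.1). For assignment, a ZMAT3 hotspot at 99.7 kb (score 13.1) was inside and a PERP hotspot at 100.1 kb (score 6.74) outside.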

How the data were processed

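ATAC-seq libraries of 5 MCF10A replicates were made with a Nextera kit. Per the labels and the study's methods, the authors aligned reads of 75 bases to hg38 with Bowtie2, merged the alignments, removed duplicates and called hotspots with Hotspot 4.1 at a false discovery rate of 0.01, against a local background of 50000 bp. The authors dropped mitochondrial reads from their coverage track. Whether they did so for the hotspot calls, or shifted cut positions for Tn5 there, is not given in the sources used here, and a missing shift can displace hotspot edges by a few bases. The deposited value of each hotspot is a score without stated unit, used as given. Counts per library were not used here, so the depth is unknown.

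TSSs were those of protein-coding transcripts in GENCODE release 44. Hotspots were assigned by midpoint, and 73.1% of them had a TSS within 100 kb. p53 sites were searched on hg38 with no gap. The search was tested on simulated data. With 1 pooled list there was no test, and lists are described by counts and medians beside all genes. Genes named with values are those with the 5 highest and 5 lowest promoter scores, the most and the fewest assigned hotspots, a p53 site in a hotspot, or a role example. The exceptions, chosen after their values were seen, are the hotspots away from promoters, the p53 sites outside hotspots and the lowest-scoring other targets. The members, lists and rules were chosen with earlier results of these data known. Values of some genes of the wider pathway are not reported here. The alternatives were other windows, distance rules, score limits and site definitions. Software was Python 3.11.15 with numpy 2.4.6, pandas 2.3.3, scipy 1.17.1, pysam 0.24.0 and matplotlib 3.10.9.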

Additional observations from a re-analysis of the deposited data

How the results depend on the processing

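All 33 genes kept a promoter hotspot under the 5 alternatives, with windows of 500 or 2000 bp, the midpoint rule, canonical TSSs alone and hotspots above the median score, while the share of all genes ran from 67.3% to 78.8%. The median promoter score stayed at 30.3 with the narrower window and with canonical TSSs alone. The median of assigned hotspots was 5 to 7 under the 3 changes of distance or TSS, and 3 with hotspots above the median score, where all genes had 2. The genes with a p53 site in a hotspot, 13 in the report, were 5 with at most 1 mismatch (1.19% of all genes), 8 with a gap of 0 to 13 bases and at most 1 mismatch (5.19%, again 1020 genes, of which 342 were shared), 18 with at most 3 mismatches (17.5%), and 12 with hotspots above the median score (3.92%). The 5 were CDKN1A, GADD45A, RRM2B, DDB2 and CCNG1, and TIGAR was among the 8 only through a gap. Fewer or more allowed mismatches change the count by construction. No paired analysis was possible because the replicates were pooled into 1 list before the calls. Leaving out a replicate could not be done for the same reason, and the depth that limits faint hotspots is unknown.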
